A study of Mus musculus with 12 samples.

Results

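Integrin subunits were followed through both RNA-seq tables of a study of mouse embryonic fibroblasts (MEF), cells of C57BL/6 embryos of embryonic day 13.5 that had become immortal in culture without an added oncogene. The genes described are Itga1, Itga3, Itga4, Itga5, Itga6, Itga11, Itgav, Itgb1, Itgb3 and Itgb5, chosen by name with earlier results of these data known. Counts of changed members set beside all genes are therefore a description. All 10 were listed among the 43280 entries of the one table and the 23930 entries of the other. In the first table, 3 libraries of Control cells, which carried the empty retroviral vector, stood against 3 libraries of 2MUT cells, which stably expressed a FLAG-tagged mutant of the human mitochondrial enzyme IDH2 from the same vector. In the second table, 3 libraries of 2-HG(-) cells stood against 3 libraries of 2-HG(+) cells, which had been given 300 μM 2-hydroxyglutarate (2-HG), the metabolite that mutant IDH makes, for 24 h (by the study's methods as its octyl ester, which enters cells). The labels give DMSO for the 2-HG(-) cells, while the study's text calls them non-treated. The 2MUT cells and their controls were drug-selected pools, so both groups of the first table share vector and selection, which are not described for the 2-HG cells. The labels do not say whether the 3 libraries of a group came from separate cultures, so the p-values measure the spread between these libraries, which may be technical.

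Integrins are receptors of the cell surface made of an alpha and a beta subunit, and they tie the matrix outside the cell to actin inside it. The alpha subunit sets much of the ligand choice. Itga1 and Itga11 bind collagens, Itga3 and Itga6 bind laminins, Itga4 and Itga5 bind fibronectin, and Itgav binds ligands with an Arg-Gly-Asp (RGD) motif such as vitronectin and fibronectin. Itgb1 is the common partner of the collagen, laminin and fibronectin receptor alphas, whereas Itgb3 and Itgb5 pair with Itgav. In fibroblasts these receptors build focal adhesions, assemble the fibronectin matrix and pull on collagen.

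Values are RPM, the share of a library's gene reads that fell on a gene, scaled to 1000000. Each gene was read through a short amplified target, so the RPM of different genes are not compared as levels, and a low value does not show that a gene was off. In the first table, for instance, Ilk, an adaptor used by adherent cells at large, was listed at 0 in 5 of 6 libraries. Libraries held 6472439 to 7313602 reads on genes in the first table and 14959318 to 18363768 in the second, so that 3 reads corresponded to 0.41 to 0.464 RPM and to 0.163 to 0.201 RPM. Of 10 fibroblast markers, 7 or 8 reached a mean of 1 RPM in each group, and Fap was at or near 0 in every group, as was S100a4 in the first table, the only one analysed here that lists it. Their summed level ran from 11459 to 12550 RPM in Control and from 7881 to 8491 RPM in 2MUT, and from 19738 to 21276 RPM in 2-HG(-) and from 13547 to 14771 RPM in 2-HG(+). Summed contractile markers, mostly Acta2, were at 183 to 199 RPM in Control and 46.0 to 55.3 RPM in 2MUT, and at 407 to 439 RPM in 2-HG(-) and 241 to 260 RPM in 2-HG(+). Single markers went the other way, since with 2-HG Cnn1 rose from 36.8 to 49.4 RPM and Thy1 from 2.76 to 5.23 RPM (limma adjusted p = 0.0107 and 0.0136), and Pdgfra was at 372 RPM in Control and 458 RPM in 2MUT (0.0618). Endothelial and epithelial markers stayed under 3.1 RPM in sum. The leukocyte marker Ptprc was at 0 in 2MUT and in both 2-HG groups, but summed leukocyte markers were higher in 2MUT, as given below. Summed neural and glial markers, mostly Tubb3, were at 1.94 to 1.98 RPM in 2-HG(-) and 5.69 to 6.53 RPM in 2-HG(+). In the first table they overlapped, at 10.2 to 16.5 RPM in Control and 15.1 to 18.0 RPM in 2MUT. Mouse Idh2 was at 70.9 to 80.8 RPM in Control and at 42.6 to 55.2 RPM in 2MUT, and whether its target also reads the human transgene is not given in the sources used here. The fibroblast and contractile marker levels moved with the groups, as did the leukocyte sum in 2MUT and the neural sum with 2-HG. The part of these markers in the integrin results was not tested. In bulk RNA, fewer cells of a kind and less RNA per cell cannot be told apart.

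In 2MUT cells the collagen receptor alphas Itga1 and Itga11, the laminin receptor alphas Itga3 and Itga6 and the common beta subunit Itgb1 all rose, by 1.46-fold to 1.91-fold. The fibronectin and RGD receptor subunits Itga5, Itgav and Itgb5 did not pass the test in either table. With 2-HG, Itga1, Itga11 and Itga3 fell, Itga11 by far the most with a level 3.34-fold lower, and Itga6 rose. A gene was called changed when the adjusted p of limma on log2(RPM + 1) was under 0.05. Itga4 and Itgb3 had means under 1 RPM in both tables and were not tested. Of the 8 members tested in 2MUT against Control, 5 rose, against 16.5% of all 11065 genes tested, and their median log2 change was 0.55 against 0.01 over all genes. No member fell, where 17.3% of all genes did, and 33.8% of all genes changed in either direction. At an unadjusted limma p under 0.05, 0 members were lower, and edgeR and DESeq2 also called 0 lower. Of the 8 tested with 2-HG, 1 rose, against 16.1% of all 10384 genes tested, and 3 fell, against 16.7%, while 32.8% of all genes changed in either direction. The members tested had a median log2 change of -0.26 against -0.02 over all genes.

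**Figure D1:**
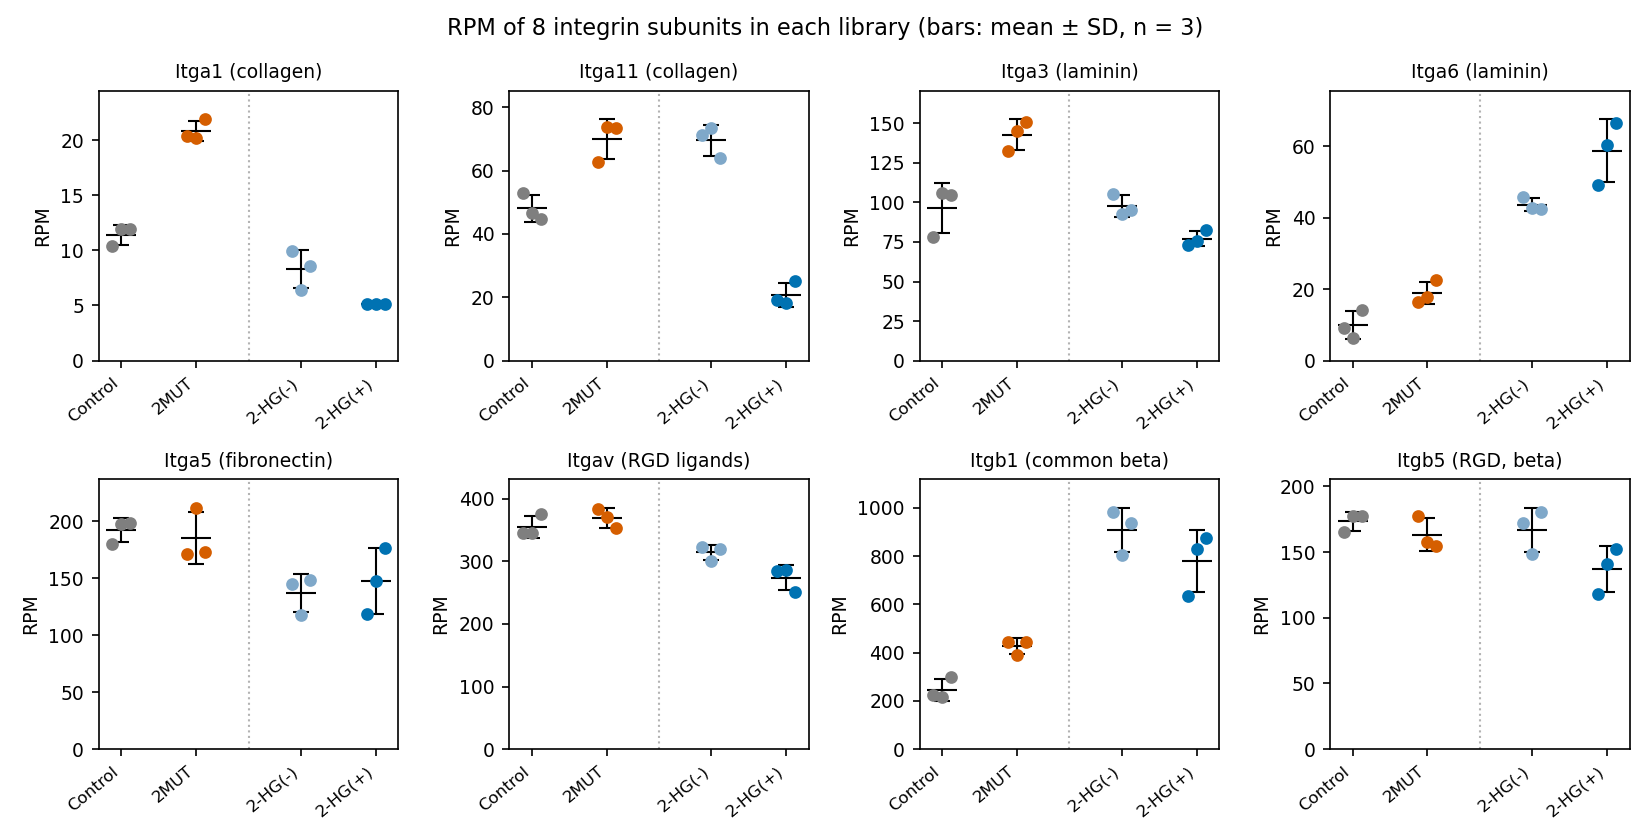
RPM of the 8 integrin subunits that passed the filter, one panel per gene with its own linear axis from 0, each point a library and each bar the mean ± SD of 3 libraries, with the first table to the left of the dotted line. The 2MUT libraries of Itga1 sit between 20.2 and 21.9 RPM, above all Control libraries, and the 2-HG(+) libraries of Itga11 sit between 18.3 and 25.2 RPM, below all 2-HG(-) libraries.

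The changes of 4 members, Itga1, Itga3, Itga11 and Itgb1, differed between 2MUT and 2-HG, and the sequences before their start sites are shown to set these genes side by side. RefSeq's table for GRCm38.p6 held a promoter entry for 8 of the 10 members. Each line gives the 250 bases before the start site on the gene's own strand, 5′ to 3′, and capitals mark a GC box (GGGCGG) or a Smad element (CAGAC) on either strand. For Itga3, which has 2 start sites in that table, the first is shown. They lie at chr13:115101965-115102214 on the minus strand for Itga1, at chr11:95076715-95076964 on the minus strand for Itga3, at chr9:62677605-62677854 on the plus strand for Itga11 and at chr8:128685404-128685653 on the plus strand for Itgb1.
Itga1: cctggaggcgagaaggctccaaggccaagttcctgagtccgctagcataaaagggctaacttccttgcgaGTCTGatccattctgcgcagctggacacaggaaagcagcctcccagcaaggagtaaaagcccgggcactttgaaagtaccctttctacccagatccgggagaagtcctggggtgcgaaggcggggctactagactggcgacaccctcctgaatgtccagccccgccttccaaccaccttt
Itga3: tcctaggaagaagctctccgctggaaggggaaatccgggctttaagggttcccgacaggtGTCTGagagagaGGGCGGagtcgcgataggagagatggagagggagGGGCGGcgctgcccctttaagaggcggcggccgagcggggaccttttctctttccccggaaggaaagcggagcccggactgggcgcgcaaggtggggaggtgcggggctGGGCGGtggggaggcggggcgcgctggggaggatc
Itga11: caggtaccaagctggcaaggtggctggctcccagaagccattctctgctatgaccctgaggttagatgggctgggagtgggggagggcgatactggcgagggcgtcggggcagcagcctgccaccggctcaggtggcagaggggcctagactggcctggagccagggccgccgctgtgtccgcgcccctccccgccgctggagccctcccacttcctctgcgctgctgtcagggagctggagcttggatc
Itgb1: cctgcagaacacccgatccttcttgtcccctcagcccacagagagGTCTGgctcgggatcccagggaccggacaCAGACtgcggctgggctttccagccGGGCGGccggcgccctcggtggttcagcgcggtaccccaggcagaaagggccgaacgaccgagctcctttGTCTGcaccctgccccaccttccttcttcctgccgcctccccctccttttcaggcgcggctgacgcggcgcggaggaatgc
The Itga1 window held 1 Smad element, at -180 from the start site, and no GC box. In Itga3, GC boxes began at -178, -144 and -35 and a Smad element at -190. In Itgb1, a GC box began at -151 and Smad elements at -205, -176 and -81. The Itga11 window held none of the 7 motifs searched on both strands. The others were the TATA box (TATAAA), the hypoxia response core (ACGTG, which lies within the E-box), the AP-1 site (TGANTCA), the E-box (CACGTG) and the CArG box. Over 32851 promoters of this length, 32.7% held the GC box and 42.2% the Smad element, and 12.4%, 16.6%, 6.75%, 6.02% and 1.47% held the others in that order. GC content was 57.6% in Itga1, 67.6% in Itga3, 68.4% in Itga11 and 68% in Itgb1, against a median of 52.4% over all promoters. CpG pairs numbered 10 in Itga1, 22 in Itga3, 12 in Itga11 and 21 in Itgb1, against a median of 6. Itga5, Itgav and Itgb5, whose changes did not differ, had GC contents of 55.6%, 64.4% and 65.2% and 11, 18 and 18 CpG pairs. Their GC boxes numbered 2, 0 and 3, and the Itgav window, like that of Itga11, held none of the motifs. Windows above these medians were thus not particular to the 4 members. The second start site of Itga3, with its window at chr11:95069199-95069448, differed from the first: it had a GC content of 50.8%, 5 CpG pairs, 1 GC box, at -246, and no Smad element. A match is a description of the letters and not a bound site.

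Both collagen receptor alphas moved up in 2MUT and down with 2-HG. Itga1, the alpha subunit that binds basement membrane and fibrillar collagens, lies at chr13:114953096-115101964 on the minus strand of GRCm38, where it overlaps Pelo and Gm49395 on its own strand and the antisense gene Gm10734. Its level was 10.4, 12.0 and 11.9 RPM in Control and 20.4, 20.2 and 21.9 RPM in 2MUT. The 2MUT libraries lay above all Control libraries and close to one another. The mean rose 1.83-fold, from 11.4 ± 0.909 to 20.8 ± 0.917 RPM (SD, n = 3), a log2 change of 0.82 (95% interval 0.48 to 1.15, limma adjusted p = 0.00186). With 2-HG, the level was 9.91, 6.42 and 8.59 RPM in 2-HG(-) and 5.09, 5.11 and 5.16 RPM in 2-HG(+). The treated libraries lay below all untreated ones, and the spread came from the untreated side. The log2 change was -0.59 (95% interval -0.95 to -0.22, limma adjusted p = 0.0216). That call was lost without 2-HG(-) replicate 1 (limma adjusted p = 0.0821), without 2-HG(-) replicate 3 (0.0777) and without 2-HG(+) replicate 2 (0.0582), with log2 changes of -0.74 to -0.46 over the 6 libraries left out in turn. It was also lost in a per-gene test without limma's shared variance (adjusted p = 0.0797).

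Itga11, the collagen receptor alpha best known from fibroblasts and from the reorganization of fibrillar collagen, lies at chr9:62677826-62783982 on the plus strand. Its level was 52.8, 46.7 and 44.7 RPM in Control and 62.9, 73.8 and 73.3 RPM in 2MUT. Every 2MUT library exceeded every Control library. The mean went from 48.1 ± 4.22 to 70.0 ± 6.17 RPM (SD, n = 3), a 1.46-fold rise and a log2 change of 0.53 (95% interval 0.26 to 0.80, limma adjusted p = 0.00626). In the other table the level was 71.3, 73.5 and 64.1 RPM in 2-HG(-) and 19.1, 18.3 and 25.2 RPM in 2-HG(+). The gap between these groups was wider than the range within either of them. The mean fell from 69.6 ± 4.89 to 20.9 ± 3.79 RPM (SD, n = 3), and the log2 change was -1.70 (95% interval -2.01 to -1.39, limma adjusted p = 2.48e-05). Both calls held with each library left out in turn, at log2 changes of 0.48 to 0.61 in 2MUT and of -1.84 to -1.62 with 2-HG.

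**Figure D2:**
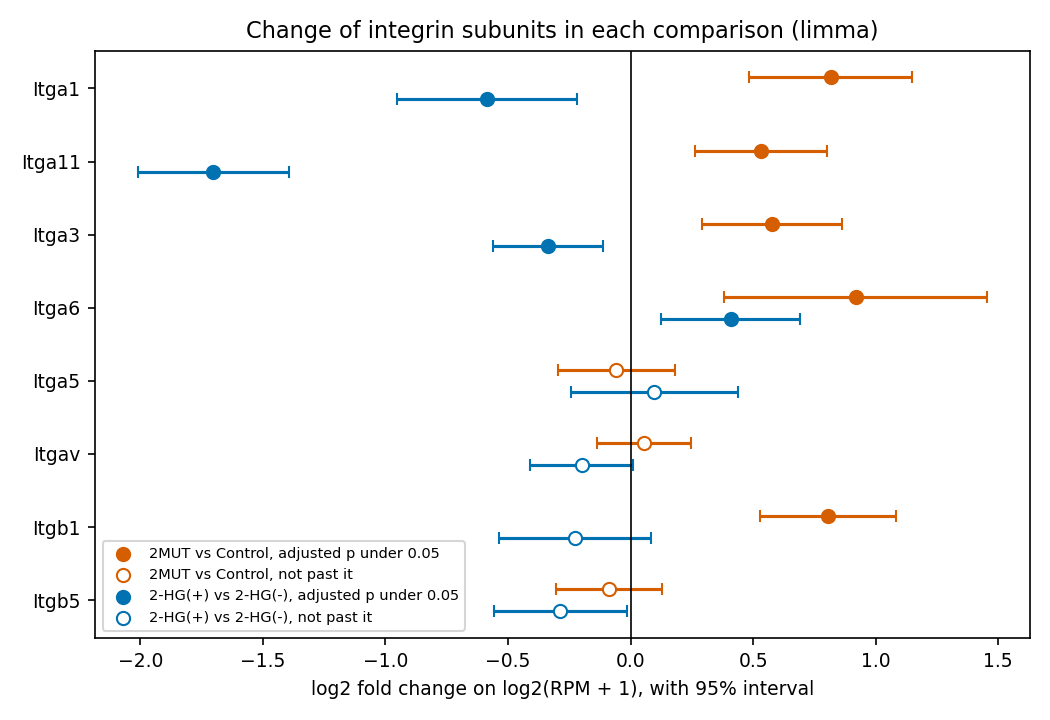
Log2 change of the 8 tested integrin subunits in 2MUT against Control and in 2-HG(+) against 2-HG(-), each point the limma estimate on log2(RPM + 1) and each bar its 95% interval, with the line at 0 marking equal levels. Itga11 lies at 0.53 in 2MUT and at -1.70 with 2-HG, while the points of Itga6 lie above 0 in both.

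The laminin receptor alphas both rose in 2MUT and went opposite ways with 2-HG by limma. The per-gene test called neither, with adjusted p-values of 0.074 for Itga3 and 0.127 for Itga6 in 2MUT and 0.053 and 0.106 with 2-HG. Itga3, a laminin receptor of basement membrane contacts, lies at chr11:95044474-95076801 on the minus strand. It was at 78.1, 106 and 105 RPM in Control and at 132, 145 and 151 RPM in 2MUT. Control replicate 1 was the lowest, and the groups did not overlap. The mean rose 1.48-fold, from 96.3 ± 15.7 to 143 ± 9.64 RPM (SD, n = 3), with a log2 change of 0.58 (95% interval 0.29 to 0.86, limma adjusted p = 0.0058). With 2-HG it went from 105, 92.5 and 95.04 RPM to 73.0, 75.8 and 82.5 RPM. The treated libraries were again all below the untreated ones, by a smaller margin than for Itga11. The log2 change was -0.34 (95% interval -0.56 to -0.11, limma adjusted p = 0.0283). This fall was lost without 2-HG(-) replicate 1 (limma adjusted p = 0.0965), 2-HG(-) replicate 3 (0.0718), 2-HG(+) replicate 1 (0.0627) or 2-HG(+) replicate 2 (0.0965), at log2 changes of -0.39 to -0.28.

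Itga6, the laminin receptor alpha that pairs with Itgb1 or with Itgb4, lies at chr2:71745616-71858416 on the plus strand and overlaps 4 genes known only by Gm numbers. Its level was 9.17, 6.41 and 14.1 RPM in Control and 16.4, 17.9 and 22.4 RPM in 2MUT. Control replicate 3 came closest to the 2MUT range. The mean rose 1.91-fold, from 9.89 ± 3.89 to 18.9 ± 3.15 RPM (SD, n = 3), with a log2 change of 0.92 (95% interval 0.38 to 1.46, limma adjusted p = 0.0138). Without 2MUT replicate 3 the log2 change was 0.79 and the call was lost (limma adjusted p = 0.0607). With 2-HG the level went from 45.9, 42.9 and 42.4 RPM to 49.2, 60.4 and 66.6 RPM. The treated libraries were all higher, and they differed among themselves more than the untreated ones did. The log2 change was 0.41 (95% interval 0.13 to 0.69, limma adjusted p = 0.0327). Leaving out 2-HG(-) replicate 1 (limma adjusted p = 0.0568), 2-HG(-) replicate 2 (0.0709), 2-HG(-) replicate 3 (0.106), 2-HG(+) replicate 2 (0.103) or 2-HG(+) replicate 3 (0.111) took the call away, so it held only without 2-HG(+) replicate 1.

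Of the fibronectin and RGD receptor alphas among the members, Itga5 and Itgav were tested and showed no change that passed. Itga5, which with Itgb1 forms the main fibronectin receptor of fibroblasts, lies at chr15:103344286-103366763 on the minus strand and was at 180, 198 and 199 RPM in Control and at 171, 212 and 173 RPM in 2MUT. In the other table it was at 145, 118 and 148 RPM in 2-HG(-) and at 119, 147 and 177 RPM in 2-HG(+). The groups overlapped in both tables. The log2 change was -0.06 in 2MUT (95% interval -0.30 to 0.18, limma adjusted p = 0.712) and 0.10 with 2-HG (95% interval -0.24 to 0.44, limma adjusted p = 0.662), so changes of up to 0.44 on this scale remain possible.

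Itgav, which lies at chr2:83724397-83806916 on the plus strand and pairs with several beta subunits, was at 345, 346 and 376 RPM in Control and at 384, 371 and 353 RPM in 2MUT. Its log2 change there was 0.06 (95% interval -0.14 to 0.25, limma adjusted p = 0.657). With 2-HG it went from 322, 301 and 319 RPM to 285, 286 and 251 RPM. All 3 treated libraries were below the untreated ones, yet the log2 change of -0.20 did not pass the test (95% interval -0.41 to 0.01, limma adjusted p = 0.135). Counting such separation alone, 5 of 8 members were higher in every 2MUT library, against 23.5% of all genes tested, and 4 of 8 were lower in every 2-HG(+) library, against 24.1%. One member, Itga6, was higher in every 2-HG(+) library, against 22.2%.

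Of the beta subunits, Itgb1 rose in 2MUT. It lies at chr8:128685654-128733200 on the plus strand, and its level was 226, 214 and 298 RPM in Control and 446, 389 and 446 RPM in 2MUT. No Control library reached the lowest 2MUT library. The mean rose 1.73-fold, from 246 ± 45.5 to 427 ± 32.8 RPM (SD, n = 3), with a log2 change of 0.80 (95% interval 0.53 to 1.08, limma adjusted p = 0.000658), and it stayed past the threshold with each library left out, at 0.71 to 0.95. With 2-HG, the level was 982, 804 and 937 RPM in 2-HG(-) and 635, 829 and 876 RPM in 2-HG(+). These groups overlapped, 2-HG(+) replicate 1 being the lowest. The log2 change was -0.23 (95% interval -0.54 to 0.08, limma adjusted p = 0.242), and without that library it was -0.085 (adjusted p = 0.626).

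Itgb5, the vitronectin receptor beta that pairs with Itgav, lies at chr16:33829665-33949338 on the plus strand and was at 165, 178 and 178 RPM in Control and at 178, 158 and 155 RPM in 2MUT. Its log2 change there was -0.09 (95% interval -0.30 to 0.13, limma adjusted p = 0.515). With 2-HG it went from 172, 148 and 180 RPM to 118, 141 and 152 RPM. The lowest untreated library lay below the highest treated one. The log2 change of -0.29 had an unadjusted limma p of 0.0416 and did not pass after adjustment (95% interval -0.56 to -0.01, adjusted p = 0.101), and it was -0.18 without 2-HG(+) replicate 1.

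Itga4 and Itgb3 were close to the detection floor. Itga4, a fibronectin and Vcam1 receptor alpha at chr2:79255426-79333123 on the plus strand, overlaps Cerkl and had 2 reads in all 3 Control libraries together and 3 in 2MUT. In the second table it had 1 read in each group. Itgb3, at chr11:104608000-104670476 on the plus strand, had 3 reads in Control and 2 in 2MUT. In these groups no library exceeded 2 reads of either gene, which is under the floor of 3 reads, and no fold is given. In the deeper table Itgb3 had 7, 10 and 8 reads in 2-HG(-), or 0.381, 0.668 and 0.48 RPM, and 4, 5 and 3 reads in 2-HG(+), or 0.264, 0.301 and 0.196 RPM. The treated libraries were all lower, and with no filter on low values the adjusted p of limma over 18150 genes was 0.0631.

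Whether the changes in 2MUT and with 2-HG differed was tested as a contrast over all 12 libraries and 9610 genes. The change of 4 of 8 members in 2MUT exceeded that with 2-HG, against 19.9% of all genes. For 19.5% of all genes it was below that with 2-HG, and 39.4% differed in either direction. The difference in log2 change was 1.40 for Itga1 (95% interval 0.95 to 1.86, limma adjusted p = 0.000161) and 2.23 for Itga11 (95% interval 1.84 to 2.63, limma adjusted p = 8.34e-07). It was 0.91 for Itga3 (95% interval 0.54 to 1.28, limma adjusted p = 0.000883) and 1.03 for Itgb1 (95% interval 0.59 to 1.47, limma adjusted p = 0.0013). All 4 stayed past the threshold with each of the 12 libraries left out. For Itgb1 the difference came with a change that passed in 2MUT and one that did not pass with 2-HG. The difference was 0.51 for Itga6 (95% interval -0.13 to 1.15, limma adjusted p = 0.196), and it was 0.78 and passed without Control replicate 3 (adjusted p = 0.0189) but 0.26 without Control replicate 2 (adjusted p = 0.441). For Itga5, Itgav and Itgb5 it was -0.15, 0.25 and 0.20, with limma adjusted p-values of 0.573, 0.115 and 0.347. Itga1, Itga3 and Itga11 were called higher in 2MUT and lower in 2-HG(+), a pair of calls shared by 4.19% of the genes tested in both. The reverse pair, shared by 5.18% of genes, was seen for no member. Itga6 was called higher in both, as were 1.5% of genes. The experiments differ in agent, vector, selection, duration, depth and table, which cannot be told apart here. Starting levels of some members differed too, since Itgb1 was at 246 RPM in Control and 907 RPM in 2-HG(-). Itga6 was at 9.89 and 43.7 RPM in these groups, while Itga3 was at 96.3 and 97.7 RPM.

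Ratios of subunits within each library compare receptors of one class, or a beta subunit with Itgav, and depend little on library scaling except at low levels such as those of Itga1 and Itga6, where the added 1 counts. They were taken as the log2 ratio of RPM + 1 and set against each other between groups with a two-sided exact permutation test, which cannot go below 0.1 with 3 libraries against 3. The 4 pairs gave 8 comparisons, and the smallest p adjusted over them was 0.2. Because targets differ between genes, a ratio's size has no meaning of its own and only its shift is read. Itga11 relative to Itga1 went from a mean log2 ratio of 2.94 in 2-HG(-) to 1.82 in 2-HG(+), and from 1.98 in Control to 1.70 in 2MUT, with no overlap in either table (exact p = 0.1 in each), though the lowest Control library, at 1.83, was next to the highest 2MUT library, at 1.82. Itga3 relative to Itga6 went from 1.14 in 2-HG(-) to 0.40 in 2-HG(+), again with no overlap (exact p = 0.1). In the first table this ratio was 3.21 in Control and 2.86 in 2MUT, and the groups overlapped (exact p = 0.4). Itgb1 relative to Itgav rose from -0.54 in Control to 0.21 in 2MUT (exact p = 0.1) and was 1.52 in 2-HG(-) and 1.496 in 2-HG(+) (exact p = 0.8). Itga5 relative to Itgav moved by -0.11 in 2MUT (exact p = 0.4) and by 0.30 with 2-HG (exact p = 0.3).

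**Figure D3:**
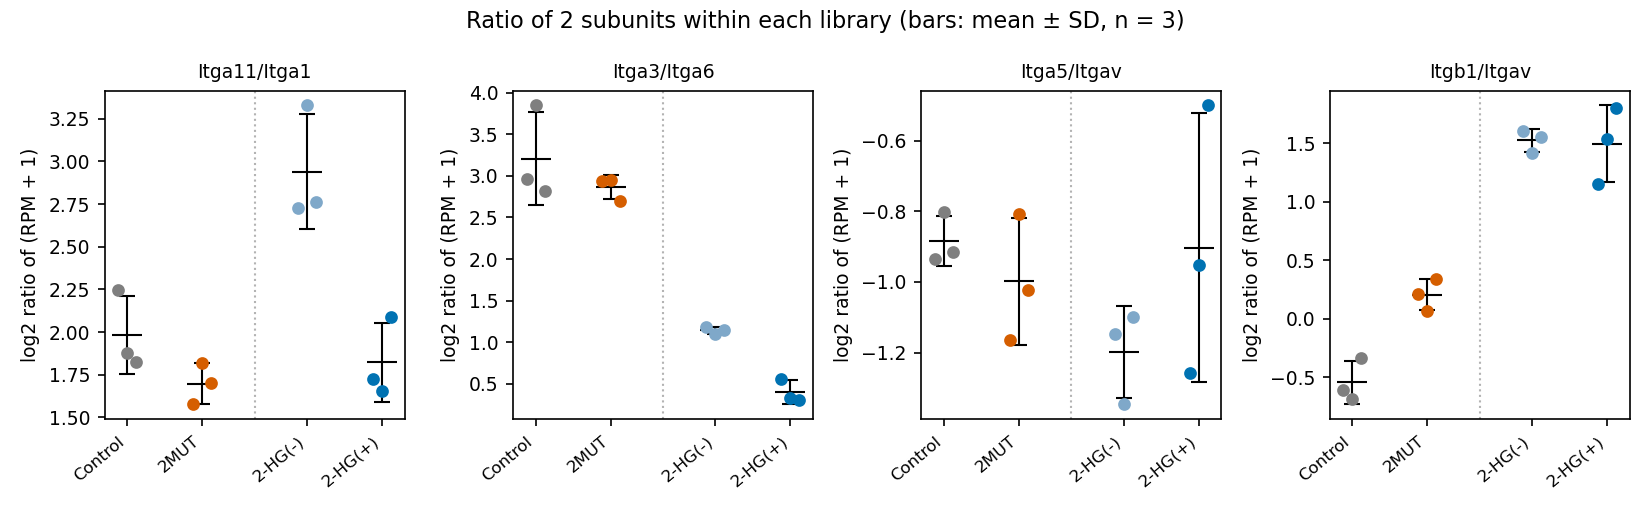
Log2 ratio of RPM + 1 of paired integrin subunits within each library, each point a library and each bar the mean ± SD of 3 libraries, with a separate axis for each pair. The 2-HG(+) libraries of Itga11 relative to Itga1 lie between 1.66 and 2.09, below the 2.73 to 3.33 of the 2-HG(-) libraries.

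Lists of related genes are read against the shares of all genes tested, which were 16.5% higher and 17.3% lower in 2MUT and 16.1% higher and 16.7% lower with 2-HG. Of 17 other integrin subunits listed for comparison, 5 were tested in each table. In 2MUT, 2 rose, the leukocyte beta subunit Itgb2 from 2.37 ± 0.663 to 8.02 ± 0.606 RPM (limma adjusted p = 0.000501) and the platelet alpha subunit Itga2b from 13.3 ± 1.16 to 20.9 ± 2.82 RPM (0.0133). Summed leukocyte markers ran from 20.1 to 23.9 RPM in Control and from 43.6 to 54.5 RPM in 2MUT, mostly Cd14, with Ptprc at 0 in 2MUT, and their part in the Itgb2 value was not tested. With 2-HG, 3 fell: Itga8 from 3.49 ± 1.67 to 1.03 ± 0.669 RPM (limma adjusted p = 0.0215), Itgb8, a partner of Itgav, from 21.8 ± 2.03 to 9.64 ± 2.25 RPM (0.00109), and Itga2b from 8.29 ± 0.388 to 4.48 ± 0.432 RPM (0.00218). Under quantile normalization and under the per-gene test, 2 of the list were lower with 2-HG. Itga2b moved as Itga1, Itga3 and Itga11 did, up in 2MUT and down in 2-HG(+).

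Integrins signal through adaptors that join their tails to actin, and 20 of 25 such genes were tested in each table. In 2MUT, 3 rose (15%) and 6 fell (30%), with a median log2 change of -0.10. The tensins Tns1 and Tns3, which bind integrin beta tails in fibrillar adhesions, rose by 0.90 and 0.59 on the log2 scale, and Parva, a partner of Ilk, by 0.27. Vcl (vinculin), a strengthener of focal adhesions, fell from 356 ± 22.9 to 157 ± 10.2 RPM (limma adjusted p = 7.63e-06), Vasp by 0.62 and Tln1 (talin), the main integrin activator, by 0.42 on the log2 scale. With 2-HG, 1 rose (5%) and 5 fell (25%), with a median of -0.12. Tns1 and Tns3 fell by 0.99 and 0.95, Fermt2 (kindlin-2), a co-activator, by 0.61, and Parvb rose by 0.47 on the log2 scale. The Fermt2 call, from 176 ± 27.6 to 118 ± 35.2 RPM, lay at the threshold (limma adjusted p = 0.0497). Tns1 and Tns3 therefore followed Itga1, Itga3 and Itga11 in direction in both tables. So did Parva, which fell by 0.48 with 2-HG (limma adjusted p = 0.00434). Tns2 was not analysed here in the first table and had a log2 change of -0.13 with 2-HG (limma adjusted p = 0.32). Talin fell in both, by 0.40 with 2-HG. A per-gene test without limma's shared variance called 3 of the adaptors lower in each table.

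Among integrin inhibitors and trafficking factors, 8 of 10 were tested. In 2MUT, 3 rose: Rab21, which recycles beta1 integrins, by 0.78, Krit1 by 0.75 and Sharpin, an inhibitor of integrin activation, by 0.43 on the log2 scale. With 2-HG, Itgb1bp1, which binds the Itgb1 tail and holds back talin, rose by 0.38, while Dab2, an endocytic adaptor for integrins, fell from 405 ± 27.8 to 166 ± 2.35 RPM (limma adjusted p = 1.1e-05) and Krit1 by 0.69. The per-gene test called 1 gene of this list in 2MUT, as higher, and 2 with 2-HG, both as lower. Of 11 names listed for membrane proteins that associate with integrins, 10 were in the tables and tested, and Cd98 was not, a protein name whose heavy chain is listed as Slc3a2. In 2MUT, 5 rose, led by Cd47, a thrombospondin receptor and partner of Itgav, at 0.63, and by the tetraspanins Cd151 and Cd9 at 0.47 and 0.39 on the log2 scale. With 2-HG, 2 rose, Plaur (the urokinase receptor) by 0.87 and Slc3a2 (CD98 heavy chain) by 0.71, and 6 fell, among them Cd82 by 0.55, Cd47 by 0.51 and Tspan4 by 0.38 on the log2 scale. The per-gene test called 1 gene of this list higher in 2MUT, and 2 higher and 1 lower with 2-HG.

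The ligands did not move with their receptors in every class. Of 10 collagen chains in 2MUT, 2 rose, Col4a1 by 0.67 and Col4a2 by 0.37, both of basement membrane, and 5 fell, among them Col3a1 by 2.33, Col6a3 by 0.82 and Col1a2 by 0.82 on the log2 scale. Col1a1 and Col1a2 stand both here and among the fibroblast markers. The median was -0.27, against 0.67 for the collagen receptor alphas Itga1 and Itga11. With 2-HG, 9 of 10 collagen chains fell, with a median of -0.74, led by Col6a2 at -1.41, Col3a1 at -1.35 and Col6a1 at -1.14. Among laminin chains, 7 of 10 were tested in 2MUT, and among them Lama4 rose by 0.80, Lamc1 rose by 0.44 and Lama5 fell by 0.67 on the log2 scale, the last of which the per-gene test did not call. With 2-HG, 6 were tested, and among them Lama4 fell by 1.29 and Lamb2 fell by 0.68.

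Of 15 fibronectin, vitronectin and other RGD or LDV ligands, 14 were tested in each table, Vtn being under the filter. In 2MUT, 6 rose, led by Fbln5 at 1.18, the thrombospondin Thbs1 at 0.75 and Cyr61 at 0.67 on the log2 scale, and 4 fell, led by Spp1 (osteopontin) at -1.75, Postn (periostin) at -1.50 and Vcam1 at -1.35. Fn1, fibronectin itself, rose from 3967 ± 478 to 5329 ± 535 RPM (SD, n = 3; limma adjusted p = 0.0111), while its receptor alpha Itga5 did not pass the test. With 2-HG, 7 fell, led by Postn at -3.03, Thbs1 at -1.90 and Edil3 at -0.80. Fn1 was at 1474 ± 77.3 RPM in 2-HG(-) and 1393 ± 112 RPM in 2-HG(+) (limma adjusted p = 0.572).

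**Figure D4:**
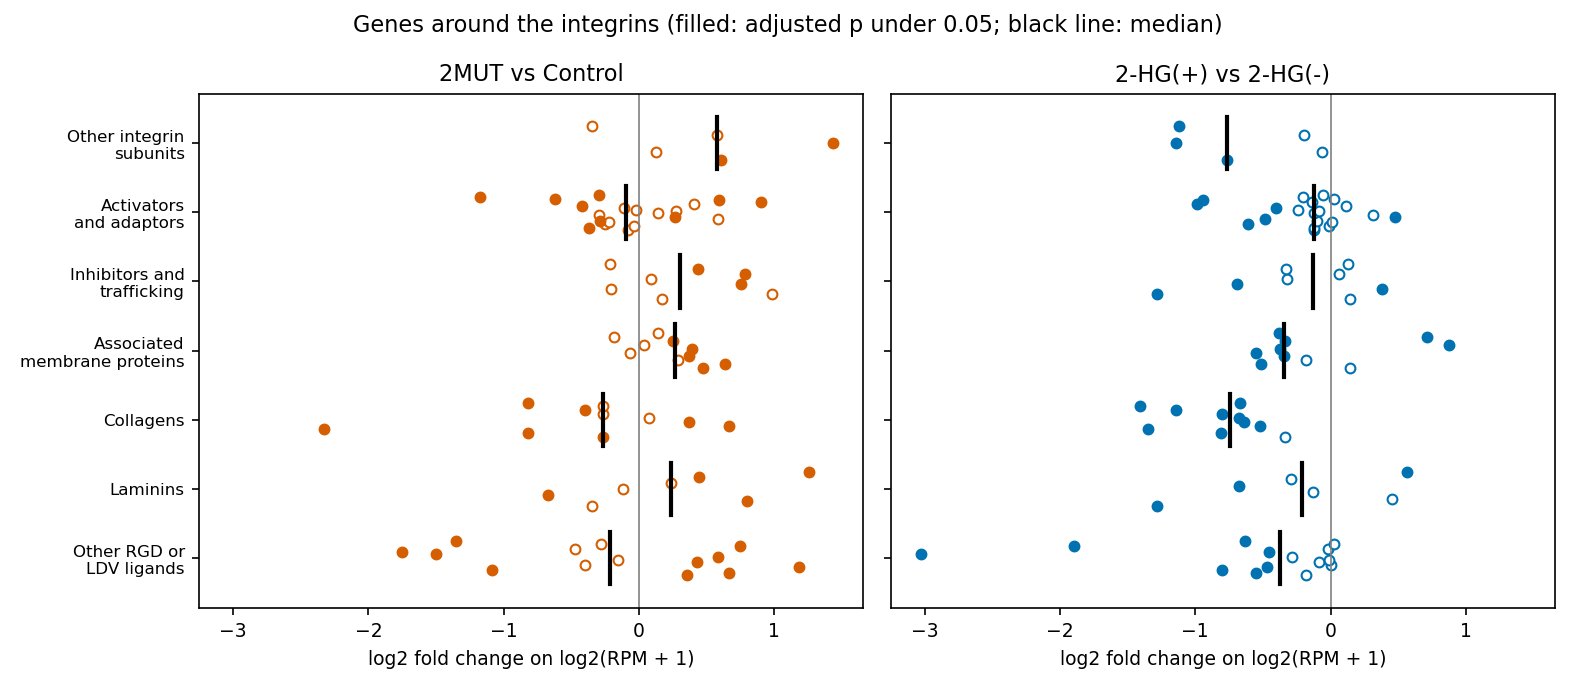
Log2 change of the tested genes of each integrin-related list in 2MUT against Control and in 2-HG(+) against 2-HG(-), each point a gene, filled where its limma adjusted p was under 0.05, and each black line the median of the list. The line of the collagen chains lies at -0.27 in 2MUT and at -0.74 with 2-HG, where 9 of 10 points are filled and below 0.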

How the data were processed

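RNA from MEF cells was amplified with the Ion AmpliSeq mouse transcriptome panel, and the authors aligned reads with TMAP to the panel's reference, used the AmpliSeqRNA plug-in to count them per target, and deposited RPM in a table for each experiment. The genome build behind the panel is not given in the sources used here. Groups came from the sample labels, and each comparison was fitted within its table. The difference between the comparisons was fitted over both tables, for 9610 of the 20443 names they share. Genes whose mean over the 6 libraries of a comparison reached 1 RPM were tested with limma 3.58.1 (R 4.3.3) on log2(RPM + 1), which understates the change of low genes, with a mean-variance trend and Benjamini-Hochberg adjustment over all genes tested and a threshold of 0.05.

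The members and lists were chosen with earlier results of these data known. Of each list, up to 3 genes called in each direction with the largest change are named, and any other gene was named after its values were seen. A laminin list result covered by this rule is not reported here. Every RPM value was a whole multiple of 1 read (100% within 0.05 read), so whole reads were recovered, and edgeR 4.0.16 and DESeq2 1.42.0 were run on them. Other alternatives were 0.1 RPM added, no filter, a filter at 10 RPM, quantile, median-of-ratios and TMM scaling, limma without a trend, a per-gene test without moderation, a block on the replicate number and leaving out single libraries. The fits were tested on simulated counts. Of genes given a log2 change of 1, 74 of 100 were recovered in the first table and 94 of 99 in the second. At a log2 change of 2, 98 of 100 and 100 of 100 were recovered. A true change can thus be missed. Libraries of a group differed beyond counting noise (chi-square per degree of freedom 5.87 to 33.1). Gene positions come from GENCODE M21 on GRCm38. Plots were drawn with matplotlib 3.10.9.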

Additional observations from a re-analysis of the deposited data

Results flagged for a closer look

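The change of 4 of 8 integrin subunits tested differed between 2MUT and 2-HG(+) by a limma contrast over 12 libraries, as did that of 39.4% of the 9610 genes tested, 19.9% in this direction. The 2MUT change minus the 2-HG change was 1.40 on the log2 scale for Itga1, 0.91 for Itga3, 2.23 for Itga11 and 1.03 for Itgb1. For Itga1, Itga3 and Itga11 the changes themselves passed the test in opposite directions, higher in 3 of 3 2MUT libraries and lower in 3 of 3 2-HG(+) libraries than in all their controls. Only the Itga11 fall with 2-HG held under each alternative run, and those of Itga1 and Itga3 were lost in the per-gene test (adjusted p = 0.0797 and 0.053) and in 3 and 4 of 6 fits with a library left out.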

How the results depend on the processing

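Itga1, Itga11 and Itgb1 in 2MUT and Itga11 with 2-HG kept direction and call under every alternative run. So did the differences between experiments for Itga1, Itga3, Itga11 and Itgb1, for which edgeR and DESeq2 were not run and, for Itga1, the filter at 10 RPM gave no value. The unmoderated test called 3 members higher in 2MUT (Itga1, Itga11 and Itgb1), 0 higher in 2-HG(+) and 1 lower (Itga11), with 1021 genes higher and 1223 lower in 2MUT and 1098 higher and 1139 lower with 2-HG, against 1826, 1915, 1668 and 1737 with limma. With no filter, Itga1 with 2-HG had a limma adjusted p of 0.0649. With single libraries left out, 4 to 5 members rose and 0 fell in 2MUT, 0 to 1 rose and 1 to 3 fell with 2-HG, while over all genes 1271 to 1926 rose and 1484 to 1880 fell in 2MUT and 1146 to 1745 rose and 1176 to 1580 fell with 2-HG. The Itga5 change with 2-HG ran from -0.0426 to 0.243, turning negative without 2-HG(-) replicate 2 (-0.00844) and without 2-HG(+) replicate 3. Deviations of same-numbered libraries had correlations of 0.03 to 0.07 in the first table and -0.46 to 0.06 in the second. Differently numbered ones had correlations of -0.14 to 0.09 and of -0.41 to 0.48. With 3 libraries a group, these values cannot decide whether the numbers pair libraries. With the replicate number as a block, 0 members rose and 2 fell with 2-HG and 5 rose in 2MUT, with 1217 genes higher and 1286 lower with 2-HG and 1911 and 1987 in 2MUT. The 2-HG calls of Itga3 (limma adjusted p = 0.0927) and Itga6 (0.0812) were lost under this block. Itga4 and Itgb3 had at most 10 reads in a library and were not tested, and the cause of their low values was not tested. Other scalings moved the median change of all genes by at most 0.03.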

Other observations

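Genes named here were chosen after their values were seen. Itgbl1, a secreted protein related to integrin beta subunits, was lower in both experiments. It went from 4.23 ± 1.43 RPM in Control to 1.30 ± 0.6 RPM in 2MUT (SD, n = 3; limma adjusted p = 0.00977) and from 16.6 ± 1.24 RPM in 2-HG(-) to 0.954 ± 0.422 RPM in 2-HG(+) (limma adjusted p = 2.98e-06).

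Itga7 and Itgb7 were among the other integrin subunits tested and did not pass in either table. Itga7, a laminin receptor alpha of muscle, was at 53.9, 67.4 and 57.3 RPM in Control and at 17.9, 136 and 109 RPM in 2MUT. The first 2MUT library lay below all Control libraries and the other two above them. Itgb7 ranged from 0.444 to 2.16 RPM over the 6 libraries of the first table and from 25.9 to 39.8 RPM over those of the second.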
